A study of Homo sapiens with 3 samples.

Results

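The 2 small interfering RNAs (siRNAs) against LINC00941, named si#1 and si#2, were compared directly with each other in AsPC-1, an established human pancreatic cancer cell line labelled as wild type. Both groups carried the same treatment apart from the siRNA: transfection at 200 nM and collection after 24 h (Day 1). A control group received a non-targeting siRNA (siNC) and is used here only to place the values. Each group was 1 sample and 1 library of total RNA, so no difference below has a replicate check, no p-value is given, and all intervals cover counting error only. The members are all listed genes with a mean of the si#1 and si#2 read counts of at least 100, which gave 12100 of 16463 genes. Just inside this limit were MIR600HG, EPOR and STAT4 (mean 100), and just outside it FAM157A and NUDT17 (mean 99.5).

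An siRNA is a short RNA duplex. One strand, the guide, is loaded into an Argonaute protein and directs cleavage of RNA that pairs with it along its length, whereas the other strand, the passenger, is normally discarded. Guide bases 2 to 8, called the seed, can also pair with 3′ untranslated regions (3′ UTRs) of unrelated mRNAs, as in a microRNA, and lower them modestly. Different siRNAs against one transcript share the target and usually differ in the seed, and for this reason they are compared with each other. LINC00941 is a long intergenic non-coding RNA (lncRNA).

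The target sites are shown because they define what the siRNAs share and where they differ. Both are 19 bases long, lie on the plus strand of GRCh38 in the same 5-exon GENCODE transcript of LINC00941, and occur 1 time in the genome. The si#1 site is at chr12:30800581-30800599 in exon 4 and the si#2 site at chr12:30801840-30801858 in exon 5, 1259 bp further along. Capitals mark the letters that pair with the seed of the guide.
si#1 target site: gcctccatattCATGAACt
si#2 target site: ccattcagcctTGAACATt
Both sites have a GC content of 42.1%. The seed matches CATGAAC (si#1) and TGAACAT (si#2) differ, but both hold the letters TGAAC.

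The common target was low with either siRNA. LINC00941 had read counts of 1551 in the siNC library, 214 in si#1 and 273 in si#2. Both siRNA libraries were far below siNC, and the si#1 library was the lower one. The log2 ratio of si#1 over si#2 was -0.33 (95% interval -0.59 to -0.06), a 1.26-fold difference. Here and below, log2 ratios are differences of quantile-normalized log2(read count + 1), and a positive value means a higher level with si#1. Where 3 read counts are given together, their order is siNC, si#1, si#2.

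The assigned reads summed to 92510692 with si#1, 90867405 with si#2 and 88690997 in siNC. The 8 epithelial markers were all members. Their log2 ratios ranged from -0.79 to 0.16. Of the markers of other cell types, 1 of 7 fibroblast (LUM), 2 of 6 immune (CD68, LYZ) and 0 of 4 endothelial markers were members, and none of these differed 2-fold. LUM had 23660 reads with si#1 and 24752 with si#2.

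Most genes were at nearly the same level with both siRNAs. The log2 ratio was within 0.25 of 0 in 66.2% of the members and within 0.5 in 89.3%, and its SD over genes was 0.35. A 2-fold or larger difference was found in 171 members (1.41%). Of these, 94 (0.777%) were higher with si#1 and 77 (0.636%) were higher with si#2. The counting interval excluded 0 in 8768 of the 12100 members. That it did so in all 171 genes was nearly certain at this many reads and carries no weight. It lay wholly past 2-fold in 77 of the 171, 34 higher with si#1 and 43 higher with si#2. In the ratio of TPM (transcripts counted per length and per total), taken as a check, 81 of the 94 and 74 of the 77 genes were also 2-fold apart. The split depended on the scale: 55.0% of the 2-fold genes were higher with si#1, against 43.5% on quantile-normalized log2(TPM + 1), where only 20 and 26 genes passed. The added 1 shrinks the ratio of genes with low TPM, whereas the TPM ratio has no added 1.

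The differences were larger among genes with few reads. With a mean of 100 to 200 reads, 7.22% of 887 genes were 2-fold apart, and the SD of the log2 ratio was 0.57. At 1000 to 5000 reads these values were 0.657% of 4871 genes and 0.30, and above 5000 reads 0.395% of 3801 genes and 0.26. The median half-width of the counting interval was 0.35 in the lowest of these classes and 0.04 in the highest. By biotype, 1.27% of 11106 protein-coding genes, 4% of 450 lncRNA genes and 3.15% of 254 pseudogenes were 2-fold apart. Of the lncRNA genes, 6 were higher with si#1 and 12 higher with si#2. Some of them are annotated transcripts that join neighbouring genes, described below, and the rest had means under 500 reads. At 200 to 500 reads, 2.97% of all 1245 members were 2-fold apart. The shares by biotype were not adjusted for the number of reads.

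**Figure D1:**
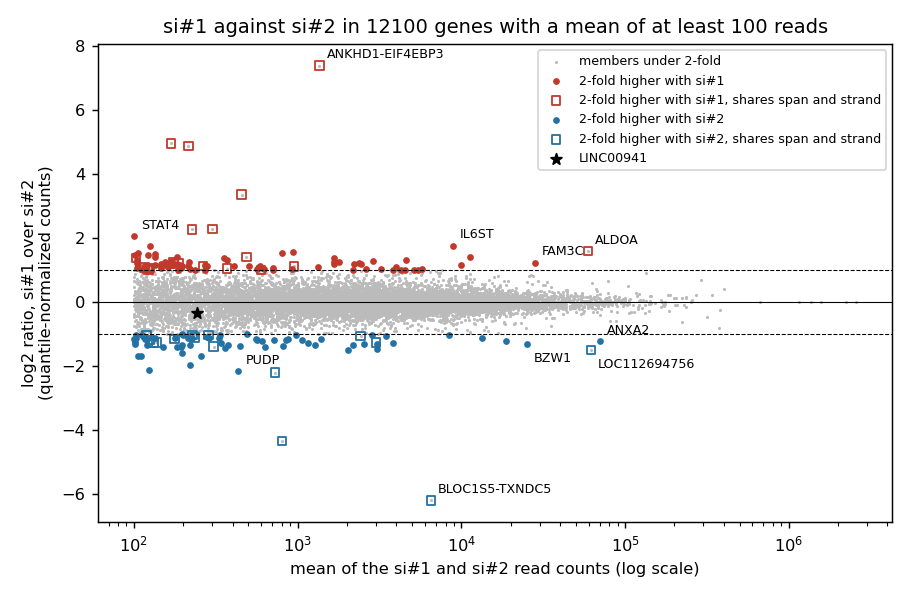
Log2 ratio of si#1 over si#2 (vertical axis) against the mean of both read counts (horizontal axis, log scale) for the 12100 genes, 1 point per gene, with dashed lines at 2-fold. Filled circles are 2-fold genes (red higher with si#1, blue higher with si#2), open squares are 2-fold genes that share their span and strand with another listed gene, and the star is LINC00941. The cloud narrows from left to right, and both genes past 4-fold above a mean of 1000 reads are open squares.

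The largest differences lay in genes that overlap other genes. Of the 12 members past 4-fold, 8 were readthrough genes, which are annotated transcripts that join neighbouring genes and share their exons. The other 4 were SEC16B, which overlaps the readthrough gene CRYZL2P-SEC16B, and STAT4, PUDP and LOC644215. STAT4, PUDP and SEC16B are named after their values were seen. ANKHD1-EIF4EBP3 had 860, 2697 and 15 reads, a log2 ratio of 7.39 (6.67 to 8.23). ANKHD1, which shares its exons, went the other way, with 7854, 1847 and 4178 reads (-1.26), although its TPM ratio was -0.40 and thus under 2-fold. Summed over ANKHD1-EIF4EBP3, ANKHD1 and EIF4EBP3, the reads were 8761, 4562 and 4318, and the log2 ratio of the sums, centred on the median of all members, was 0.04. BLOC1S5-TXNDC5 had 686, 181 and 12822 reads (-6.19), and the sum with BLOC1S5, EEF1E1-BLOC1S5 and TXNDC5 was 32417, 38118 and 36146 (0.04). Had the partners been at equal reads in both libraries, these sums would have differed by 1.28 and -0.62 on the log2 scale.

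The same held for the most abundant 2-fold pair. ALDOA, which encodes the glycolytic enzyme aldolase A, had 31532, 90012 and 28320 reads, a log2 ratio of 1.60 (1.59 to 1.62). LOC112694756, a protein-coding gene whose span (chr16:30053151-30070414) covers nearly all of ALDOA (chr16:30064279-30070420) on the same strand, had 60878, 33348 and 90098 reads (-1.50). Their sum was 92410, 123360 and 118418 reads, with a log2 ratio of 0.02, against 1.00 had LOC112694756 been at equal reads, so both siRNA libraries were alike and above siNC in reads of the locus.

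In all, 34 of the 171 genes shared span and strand with another listed gene by RefSeq positions. Of the members that did so, 34 of 1264 (2.69%) were 2-fold apart, against 134 of 10734 (1.25%) of those that did not, and 3 of the 2-fold genes had no position or strand. Summing the reads of each locus left 2 of the 34 past 2-fold, FZD8 (1.00) and HNRNPA1P33 (-1.01), and the median size of the log2 ratio went from 1.26 to 0.13. This says little for 21 of the 34 genes, which held under 50% of the reads of their locus in the library where they were higher (11 of them under 10%): with equal partners the median size of their sums would have been 0.05, beside 0.12 as measured. In the 13 genes with 50% or more of the reads, it would have been 0.94, beside 0.25 as measured and 1.20 for the genes alone. The other readthrough genes past 4-fold in favour of si#1 included MICOS10-NBL1 (218, 327 and 9 reads, sum -0.13), JMJD7-PLA2G4B (321, 417 and 13 reads, sum 0.20) and SENP3-EIF4A1 (72, 829 and 81 reads, sum 0.01), of which MICOS10-NBL1 and SENP3-EIF4A1 held 0.853% and 0.567% of the reads of their loci with si#1. UBE2F-SCLY (803, 76 and 1534 reads) kept a log2 ratio of the sums of -0.43. RPL36A-HNRNPH2 (88, 262 and 1193 reads), with 3.51% of the reads of its locus with si#2, summed to -0.07. GPRASP2 (162, 1310 and 594 reads) and CPT1B (66, 494 and 245 reads) each overlap a readthrough gene as well, and their sums were 0.06 and 0.28. Without the 34 genes, 75 genes were higher with si#1 and 62 higher with si#2.

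**Figure D2:**
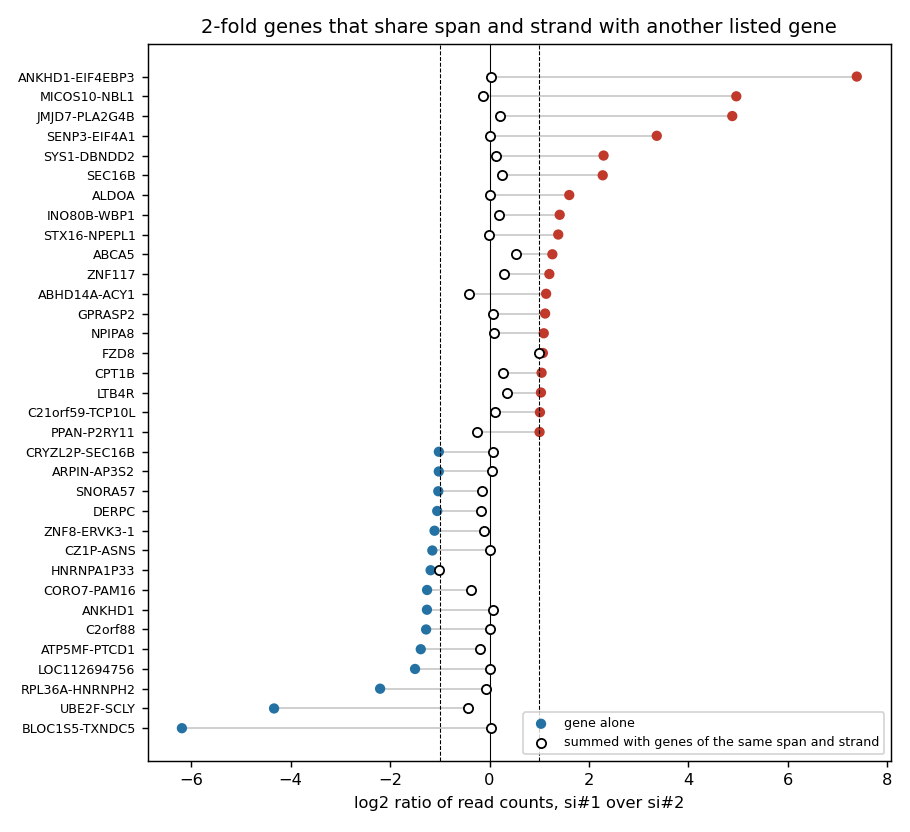
Log2 ratio of si#1 over si#2 for the 34 genes that were 2-fold apart and share span and strand with another listed gene. Filled circles give the gene alone and open circles the summed reads of the gene and its partners. The filled circles run from -6.19 to 7.39, and all open circles except FZD8 and HNRNPA1P33 lie between the dashed 2-fold lines.

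With a mean of 500 reads or more and no overlap with another listed gene, IL6ST was the protein-coding gene furthest apart in favour of si#1. IL6ST, the signalling subunit shared by receptors of the interleukin-6 family, had 6795, 13778 and 3901 reads, a log2 ratio of 1.77 (1.72 to 1.82). The siNC level lay between those of the siRNAs. GPAT3, an acyltransferase of triglyceride synthesis, was placed likewise, with 9724, 16656 and 5978 reads and a log2 ratio of 1.43 (1.39 to 1.47). PLAG1, a zinc finger transcription factor, also had its siNC value between the others (794, 1199 and 412 reads, 1.54). On quantile-normalized log2(TPM + 1) PLAG1 was at 0.92, and in the TPM ratio at 1.49.

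In other genes of this direction the si#2 library alone stood apart. FAM3C, which encodes a secreted cytokine-like protein, had 34844 reads in siNC and 39842 with si#1, but 16224 with si#2 (1.24, 1.21 to 1.26). RDH10, which oxidizes retinol to retinaldehyde, had 5272, 6590 and 2560 reads (1.31). FRRS1, a ferric chelate reductase, had 4027, 4162 and 1643 (1.30), and LYSMD3, a LysM domain protein, 2814, 2444 and 910 (1.38). In these 4 genes siNC and si#1 were close and si#2 was lower. TFPI, the inhibitor of the tissue factor pathway, showed the same order (7728, 6910 and 3301 reads, 1.00). So did FAS, a death receptor and p53 target, with 1915, 1826 and 830 reads (1.09). STAT4, a transcription factor of cytokine signalling, had the same order with 170, 162 and 38 reads (2.07, 1.56 to 2.62). Its mean of 100 reads was at the limit of membership, and its TPM were 0.85 with si#1 and 0.19 with si#2.

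A further set was lower than siNC with both siRNAs and lowest with si#2. HMGA2, an architectural chromatin protein, had 18001, 13802 and 5977 reads (1.16, 1.12 to 1.21). CHIC1 had 2691, 1405 and 465 reads (1.57). PRKAG2, a regulatory subunit of AMP-activated protein kinase, had 3503, 2558 and 1036 (1.26), and PIK3AP1, an adaptor of phosphoinositide 3-kinase, 3283, 2376 and 968 (1.25). The deubiquitinase gene USP12 had 9242, 6101 and 2913 (1.02). In all 5 genes the order was siNC, si#1, si#2. On quantile-normalized log2(TPM + 1), USP12 came to 0.94 and HMGA2 to 0.997, and in the TPM ratio to 1.03 and 1.05. PHTF1 had 2430, 3331 and 1382 reads (1.23), with siNC between.

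Of the genes higher with si#2, ANXA2, a calcium-dependent membrane-binding protein, had the most reads beside the ALDOA locus, with 128251, 42571 and 98279 and a log2 ratio of -1.21 (-1.23 to -1.20). Both siRNA libraries were below siNC, and si#1 was the lower. PIK3CA, the catalytic subunit p110 alpha of phosphoinositide 3-kinase, had the same order (6280, 1845 and 4276 reads, -1.29), as had KITLG, the ligand of the receptor KIT (13921, 5682 and 11130, -1.02), and PUDP, a phosphatase (1257, 161 and 706, -2.14).

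In other genes of this direction the si#1 library stood apart, with si#2 near siNC. TSPAN13, a tetraspanin, had 3778, 1086 and 2975 reads (-1.49, -1.59 to -1.39). PAK4, a kinase activated by small GTPases, had 1793, 685 and 1632 (-1.28), and CRISPLD2, a secreted protein, 2023, 729 and 1816 (-1.35). JPT1 had 22524, 11543 and 26027 reads (-1.22). BZW1, a regulator of translation start, had 40392, 15095 and 35107 reads (-1.29), but its TPM ratio was -0.96 and thus under 2-fold. With siNC between the siRNAs were IL7R, a receptor of interleukin-7 (543, 353 and 907 reads, -1.39), STMN3, which destabilizes microtubules (14071, 8702 and 18078, -1.12), HDDC2 (4277, 2299 and 5323, -1.26), SSBP4 (2672, 1510 and 3544, -1.30) and BCL7A, a subunit of the BAF chromatin remodeler (619, 370 and 845, -1.21). On quantile-normalized log2(TPM + 1), IL7R (-0.89), PAK4 (-0.90), BCL7A (-0.86) and KITLG (-0.95) were under 2-fold. In the TPM ratio these genes were at -1.40, -1.28, -1.25 and -1.01. ALPP, placental alkaline phosphatase, was above siNC with both siRNAs and highest with si#2 (817, 1258 and 3079 reads, -1.33).

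Several 2-fold genes have a close copy elsewhere in the genome, and the pairs named here differed in the same direction. They were picked after their values were seen, so the shared direction carries no weight. Other 2-fold pseudogenes, such as PPIP5K1P1 (-1.58), EIF1AXP1 (1.03) and RWDD4P2 (-1.01), are not set beside their parent genes here. Reads shared by such a pair are of uncertain origin. BZW1P2, a pseudogene of BZW1, had 5836, 1708 and 4433 reads (-1.45), and FAM3C2, a pseudogene of FAM3C, 3405, 3410 and 1439 (1.21). KRT8P3 had 1181, 460 and 1163 reads (-1.37), beside 370537, 252511 and 495839 for KRT8 (-0.79). The log2 ratio of KRT8 was under 2-fold in the normalized counts and -1.01 in TPM. ALPG, the germ cell paralog of ALPP, had 439, 520 and 1180 reads (-1.19), and LOC101232810, a stathmin 3 pseudogene, 895, 660 and 1299 (-1.01). How many of these reads belong to the copy was not tested.

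**Figure D3:**
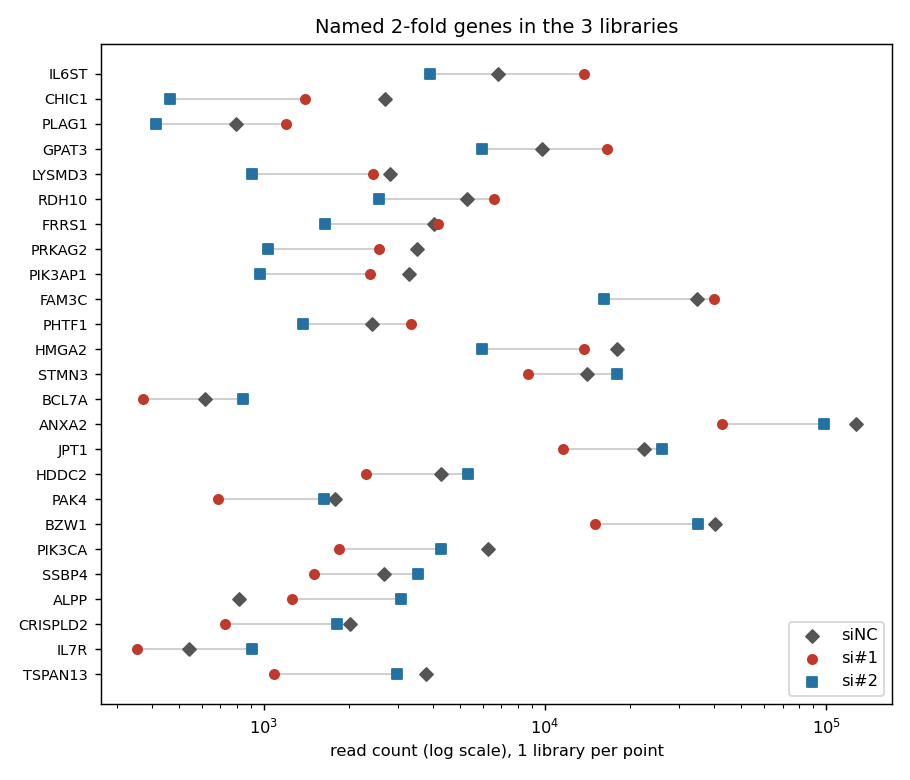
Read counts (horizontal axis, log scale) of the 25 protein-coding genes named for a large ratio or many reads, with no overlapping partner, 1 point per library (diamonds siNC, circles si#1, squares si#2), ordered by the log2 ratio from higher with si#1 (top) to higher with si#2 (bottom). A line joins si#1 and si#2. The siNC point lies between the others in some genes, such as IL6ST, and outside both in others, such as HMGA2 and ANXA2.

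The place of siNC was tallied for all 171 genes. A siNC value was called near an siRNA when it lay within 25% of the gap from it. Of the 94 genes higher with si#1, siNC was near si#1 in 33, so that si#2 was the lower library, near si#2 in 15, and between in 23. It lay beyond si#1 by more than that margin, above both siRNAs, in 14, and likewise below both in 9. Of the 77 genes higher with si#2, siNC was near si#2 in 21, near si#1 in 14 and between in 25. It lay above both by more than the margin in 7 and below both in 10. With no margin, siNC was above both siRNAs in 29 of the 94 and 20 of the 77 genes, and below both in 16 and 14. Neither siRNA library was thus the one that stood apart in most of the 171 genes.

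Among lncRNA genes that are no readthrough genes, LOC644215 had 62, 44 and 202 reads (-2.11, -2.62 to -1.64). LINC00707 had 112, 49 and 162 (-1.67, -2.16 to -1.20), and the antisense gene TMCC1-AS1 had 477, 253 and 641 (-1.35). KIAA1656 was higher with si#1 (135, 242 and 101 reads, 1.28, 0.93 to 1.63). Of 77 LINC genes 2 passed, LINC00707 and LINC01133 (207, 179 and 383 reads, -1.10), both higher with si#2. Of 138 antisense lncRNA genes 1 was higher with si#1, CARD8-AS1 (140, 200 and 92 reads, 1.13), and 3 were higher with si#2, TMCC1-AS1, C1QTNF1-AS1 (40, 61 and 140, -1.15) and, just past 2-fold, TMEM147-AS1 (207, 129 and 263). The sources used here do not say whether strand was used in counting, so reads of an antisense gene and of its partner may not be separate. On quantile-normalized log2(TPM + 1) LOC644215 remained past 2-fold (-1.42), but the other lncRNA genes named here did not: LINC00707 came to -0.53, TMCC1-AS1 to -0.85, LINC01133 to -0.87, C1QTNF1-AS1 to -0.71, TMEM147-AS1 to -0.65, CARD8-AS1 to 0.58 and KIAA1656 to 0.31. In the TPM ratio, with no added 1, they all stayed past 2-fold: -1.78, -1.38, -1.14, -1.23, -1.07, 1.08 and 1.22 in the same order. Their TPM were low, with 0.23 and 0.75 in LINC00707 with si#1 and si#2. The lncRNA genes with the largest ratios, BLOC1S5-TXNDC5, UBE2F-SCLY and SENP3-EIF4A1, are readthrough genes described above. INO80B-WBP1, SYS1-DBNDD2 and STX16-NPEPL1 are further readthrough genes listed as lncRNA genes. Their summed loci lay between -0.01 and 0.18, and they held 3.82% to 18.3% of the reads of these loci.

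Of the genes that the study names for these libraries, E2F7 and CD82 were at like levels with both siRNAs. The study took its named genes from those changed alike in 2 experiments on AsPC-1. These were the knockdown against the control in these same libraries and an inhibition of the MAPK pathway. Like levels with both siRNAs are therefore partly built in by that choice. The study also checked E2F7, F3 and CD82 by quantitative PCR. E2F7, a transcription factor of the cell cycle, had 3369, 1579 and 1425 reads (0.10, -0.00 to 0.21). CD82, a tetraspanin, had 2133, 4404 and 4345 (-0.04, -0.10 to 0.02). F3, which encodes tissue factor, had 5567, 11657 and 21672 reads, and its log2 ratio of -0.95 (-0.98 to -0.92) was just under 2-fold. SPRY4-IT1 (109, 43 and 40 reads), LOC100507291 (17, 36 and 41) and TNNC1 (18, 49 and 57) had too few reads to be members. All 3 intervals of the ratio held 0, but they were wide: -0.50 to 0.82, -0.80 to 0.57 and -0.74 to 0.42. Whether these genes were at like levels therefore cannot be said.

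Few members of the gene lists were 2-fold apart, as among all members, of which 1.41% were and whose median log2 ratio was -0.003. Of 24 interferon response genes, only IFITM2 passed, with 1909, 867 and 1893 reads (-1.15). Its neighbours and paralogs IFITM3 (1558, 989 and 1900 reads, -0.98) and IFITM1 (887, 612 and 1148, -0.94) were close to 2-fold, whereas IFIT1 had 3467, 3502 and 2326 reads (0.55). The median of this list was -0.01. None of 10 genes of double-stranded RNA sensing passed (median 0.09, -0.54 to 0.43), nor did any of 13 genes of the small RNA machinery (median 0.11). Of the Argonaute genes, which encode the proteins that carry siRNAs, AGO2 had 14494, 10353 and 7211 reads (0.46) and AGO4 394, 1069 and 719 (0.55).

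In the lists of Wnt, YAP and ERK targets and of annexins, members were more often higher with si#2. Of 16 Wnt targets and feedback genes none passed 2-fold, 4 had a ratio above 0, and the median was -0.31. Against siNC, the median of this list was -0.56 with si#1 and -0.59 with si#2. Among the members were DKK1, a secreted Wnt inhibitor (16472, 16247 and 25564 reads, -0.69), and MYC (13178, 11177 and 15493, -0.54). Unlike the list median, both had more reads with si#2 than in siNC. Of 18 YAP and TEAD targets, ANKRD1 passed (213, 104 and 283 reads, -1.41), 5 had a ratio above 0, and the median was -0.23. Of 18 annexin and S100 genes, ANXA2 passed, 4 were above 0, and the median was -0.20. None of 22 ERK feedback and immediate early genes passed, 7 were above 0, and the median was -0.12.

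The lists of the cell cycle and of protein quality leaned to si#1. Of 35 genes of the G2 and M phases none passed, 30 had a ratio above 0 and the median was 0.19. None of 46 proteasome genes passed, 33 were above 0 and the median was 0.10. None of 20 genes of the integrated stress and unfolded protein response passed (median 0.12), in which DNAJC3, a chaperone partner of the endoplasmic reticulum, had 12597, 10863 and 6387 reads (0.71). In contrast, 10 of 83 cytosolic ribosomal protein genes (median -0.10), 22 of 80 nuclear respiratory chain genes (median -0.10) and 3 of 23 snoRNA host genes (median -0.21) were above 0, and none of these passed 2-fold.

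The counts of other lists were as follows. Among 21 coagulation and protease genes the members spread in both directions: TFPI passed, PLAU, which encodes urokinase, had 7305, 33635 and 17794 reads (0.83), and PLAT, which encodes tissue plasminogen activator, 6188, 8031 and 14562 (-0.93). Of 16 p53 targets FAS passed (median -0.00), of 19 NF-kB targets and chemokines IL1A (135, 149 and 54 reads, 1.47), and of 364 ZNF zinc finger genes 5 higher with si#1, among them ZNF678 (2241, 2347 and 1005 reads, 1.19) and ZNF675 (350, 528 and 213, 1.32). Another of them, ZNF117 (114, 260 and 114, 1.20), overlaps a readthrough gene, and its summed locus was at 0.30. None passed among 26 MAPK cascade genes (median 0.04), 36 genes of the G1 and S phases (0.06), 30 genes of epithelial junctions and keratins (-0.02), 24 genes of the TGF-beta pathway (0.06) and 25 of cholesterol synthesis (0.08). Members named here that did not pass 2-fold were chosen after their values were seen. Of 161 solute carrier genes 1 passed in each direction, SLC30A10 (488, 295 and 143 reads, 1.05) and SLC43A2 (164, 208 and 454, -1.12). On quantile-normalized log2(TPM + 1), IL1A (0.61), ANKRD1 (-0.84), FAS (0.89), TFPI (0.92), ZNF675 (0.91), ZNF678 (0.85), ZNF117 (0.27), SLC30A10 (0.56) and SLC43A2 (-0.40) were under 2-fold. In the TPM ratio, with no added 1, these genes stayed past 2-fold apart from TFPI (0.98). The readthrough list stood at the other end, with 10 higher with si#1 and 9 higher with si#2 of 71 members.

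**Figure D4:**
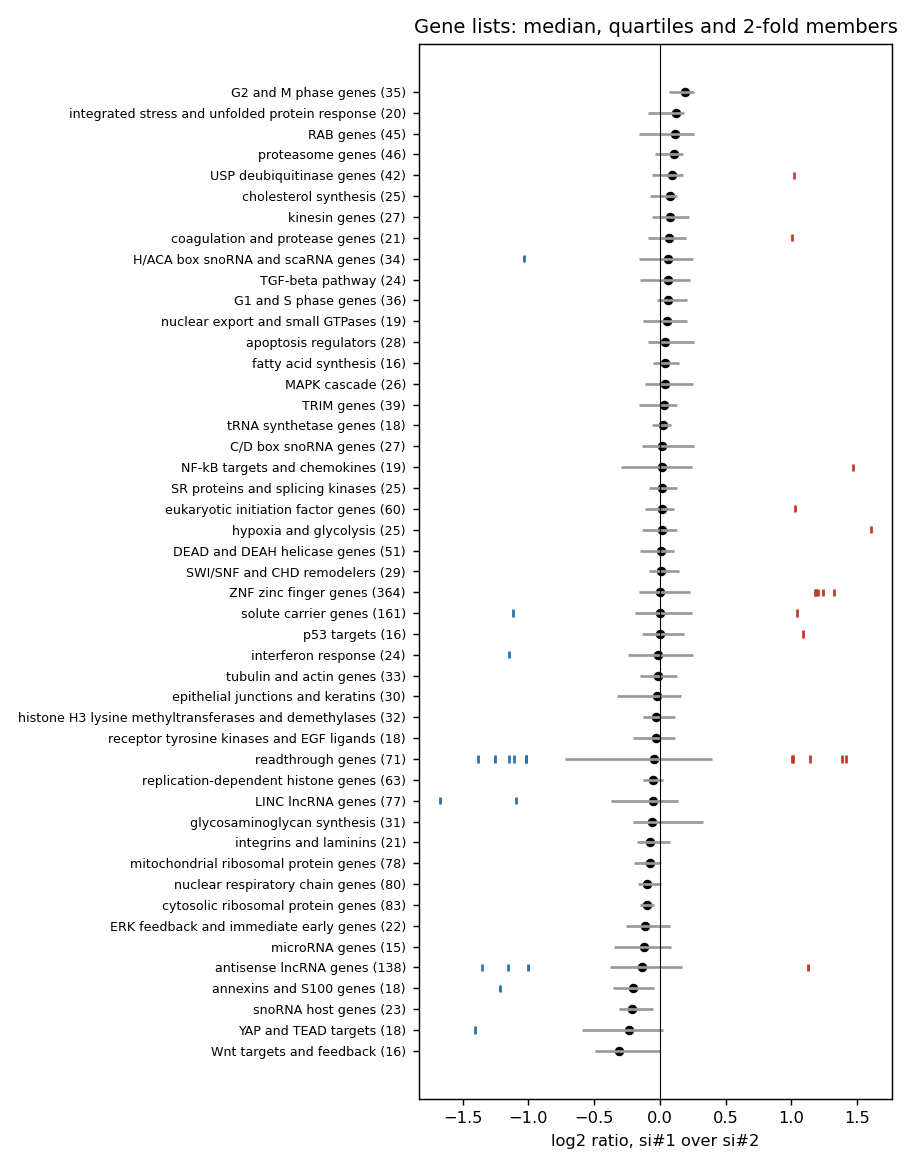
Log2 ratio of si#1 over si#2 by gene list, for lists with at least 15 members (number in parentheses). Points are medians, bars run from the lower to the upper quartile, and ticks are members between 2-fold and 4-fold in either direction. The 8 readthrough genes past 4-fold are not drawn. Medians run from -0.31 for Wnt targets and feedback to 0.19 for the G2 and M phase genes.

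The ratio followed the base composition of the transcript. With the members placed in 5 equal groups by GC content of the GENCODE transcript, the median log2 ratio was 0.13 in the group of lowest GC content, then 0.07, -0.01, -0.07 and -0.12 in the group of highest. Against the same siNC library, the lowest group had a median of -0.13 with si#1 and -0.26 with si#2, and the highest 0.29 and 0.41, so that the gradient was steeper in the si#2 library. By transcript length, the medians went from -0.05 in the shortest to 0.04 in the longest group. The part of this gradient in the list medians was not tested. With this trend subtracted, 86 and 75 genes were 2-fold apart, 77 and 67 of them among the 94 and 77.

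Seed matches were counted in the 3′ UTRs of 11085 members, which had a median log2 ratio of 0.001. The seed match of si#1 was found in 1056 of these 3′ UTRs (9.53%), and the median log2 ratio was -0.02, against 0.004 in genes without it. It was -0.04 in the 374 genes with the match followed by A, called an 8-base match, and -0.07 in the 121 genes with 2 or more matches. The seed match of si#2 was found in 1684 (15.2%), with a median of 0.07 against -0.01, and with 0.13 in 431 genes with an 8-base match and 0.13 in 337 with 2 or more. Genes with a match were thus lower in the library of the matching guide, by small amounts. Against siNC, the genes with an 8-base si#1 match had medians of -0.27 with si#1 and -0.17 with si#2. Those with an 8-base si#2 match had -0.22 and -0.41, beside 0.06 and 0.05 over all members with a 3′ UTR. These siNC medians were not adjusted for 3′ UTR length, and genes with long 3′ UTRs were below siNC without a match too. In the longest of 3 equal groups by 3′ UTR length, genes with no si#1 match had -0.09 with si#1 and -0.16 with si#2. Genes of that group with no si#2 match had -0.07 and -0.10. Matches to the passenger strand of si#2 gave 0.08 in 1722 genes, as much as its guide, and those of si#1 0.01 in 1433 genes.

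Genes with matches had long 3′ UTRs, with a median length of 3472 bases for si#1 and 3225 for si#2, against 1189 and 1091 without. The median difference was therefore taken within 3 equal groups by 3′ UTR length. For si#1 it was -0.07 on average, and for si#2 0.07. The same was done for each of the 13 runs of 7 bases along a guide. For si#1, bases 2 to 8 gave the lowest of the 13 values, and again the lowest (-0.07) once the trend with length and GC content was subtracted. The next lowest as measured, bases 13 to 19 (-0.06), came to -0.009. For si#2, bases 2 to 8 gave the highest of the 13 values, but 0.007 with the trend subtracted, which was number 7 of 13 from the lowest. With the trend subtracted, the difference of the 7-base seed matches was thus 0.007 for si#2, and that of si#1 stayed at -0.07. The trend was not subtracted for 8-base matches or for 2 or more matches. The cause of these differences was not tested. None of these medians has a replicate check.

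**Figure D5:**
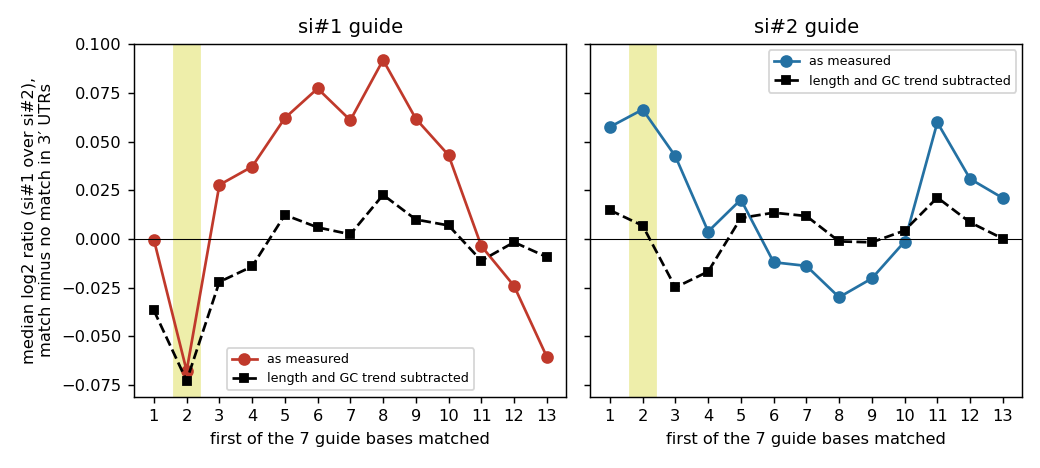
Difference in median log2 ratio (si#1 over si#2) between genes with and without a match in the 3′ UTR, averaged over 3 groups of 3′ UTR length, for each run of 7 bases along the si#1 guide (left) and the si#2 guide (right). The horizontal axis gives the first base of the run, and the shaded column is the seed. Solid lines are as measured and dashed lines have the trend with length and GC content subtracted. The si#1 seed is the lowest point of both lines on the left, and on the right the dashed line stays between -0.025 and 0.021.

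Among the 2-fold genes with a 3′ UTR, 20 of 88 genes higher with si#1 (22.7%) held a match to the si#2 guide seed, and 9 of 55 genes higher with si#2 (16.4%) held one to the si#1 guide seed, beside 15.2% and 9.53% of all members with a 3′ UTR. In the opposite pairing, 10 of the 55 genes (18.2%) held a match to the si#2 guide seed and 9 of the 88 genes (10.2%) one to the si#1 guide seed, so that all 4 shares were above those of all members. These shares were not adjusted for 3′ UTR length. The passenger strand of si#2 had a match in 23 of the same 88 genes (26.1%), beside 15.5% of all. The sites below are 8-base matches, shown because they carry the match in genes that were 2-fold lower in the library of the matching guide. They come from 3 of the 4 genes per siRNA that were furthest in this direction among those with 500 reads or more on average. Each is 22 bases of GRCh38, ends with the match (capitals) and the A after it, and lies in the 3′ UTR. Those of si#1 are at chr12:88494977-88494998 (minus strand) in KITLG, chr3:179234449-179234470 (plus strand) in PIK3CA and chr16:84909372-84909393 (plus strand) in CRISPLD2.
KITLG: agttgaataaaatgCATGAACa
PIK3CA: ggaattgcacaatcCATGAACa
CRISPLD2: ttttttgtgctttgCATGAACa
Those of si#2 are at chr5:55938813-55938834 (minus strand) in IL6ST, chrX:73684494-73684515 (plus strand) in CHIC1 and chr1:99707917-99707938 (minus strand) in FRRS1.
IL6ST: attcattctggaaaTGAACATa
CHIC1: aaaacctcactactTGAACATa
FRRS1: tgataaaacccttgTGAACATa
Outside the seed these sites share little with the guides: laid against the 19-base target sites, they had the same letter at 9 to 11 positions, the seed included. KITLG, PIK3CA and CRISPLD2 also held 7-base matches to the si#2 guide, 2 in KITLG and 1 in each of the others, whereas IL6ST, CHIC1 and FRRS1 held 0 to the si#1 guide. For the seed of the si#2 passenger strand, IL6ST and FRRS1 held 2 matches each and KITLG 1. IL6ST also held 2 to that of the si#1 passenger strand. PIK3CA, CRISPLD2 and CHIC1 held 0 to either passenger strand. WDYHV1 (1738, 661 and 1456 reads, -1.17) and PLAG1 were the remaining genes of this choice, and their sites are not printed here. KITLG, PIK3CA and CRISPLD2 were 2-fold lower with si#1 than with si#2, and IL6ST, CHIC1 and FRRS1 lower with si#2, by the values given above. A match is a sequence of letters, and binding was not measured.

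No searched transcript of another listed gene held a target site with fewer than 2 mismatches. GENCODE transcripts of the listed genes were searched for the 19-base sites with up to 3 mismatches, on either strand. Listed genes with no GENCODE transcript were not searched. For the guide strands, 8 members beside LINC00941 matched the si#1 site and 14 the si#2 site, each with 3 mismatches. Their median log2 ratios were -0.12 (-0.47 to 0.22) and -0.10 (-0.53 to 0.51), and 0 of them passed 2-fold. For the passenger strands, 20 and 16 members matched, 1 and 3 of them with 2 mismatches, and again 0 passed 2-fold.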

How the data were processed

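RNA was measured in 3 libraries of AsPC-1 cells, 1 each for siNC, si#1 and si#2, prepared as stranded libraries after removal of ribosomal RNA. The authors aligned reads to GRCh38 with HISAT2, assigned them to RefSeq genes with StringTie, and deposited a read count per gene with no normalization. The authors also deposited TPM values, which divide by transcript length and by the library's total. Their fold change and normalized columns, 24 per-sample columns in all with those of a second sheet that repeats 7 genes, were not used. Versions of the aligner and counter are not stated in the sources used here. The siRNA sequences are those the study gives, with the antisense strand taken as the guide.

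Read counts were quantile normalized as log2(count + 1) over 16463 genes and 3 libraries, and the difference of si#1 and si#2 was taken for the 12100 members. Genes at 2-fold or more were called. Intervals (95%, Clopper-Pearson) come from the counts of si#1 and si#2, shifted by the normalization, and cover counting error only. The TPM ratio, with no pseudocount and centred on the members' median, was the check. The study normalized log2(FPKM + 1), and log2(TPM + 1) in the same normalization was an alternative. The calculation was tested on simulated data. Transcripts and 3′ UTRs came from GENCODE 44 (11955 members matched) and gene spans from RefSeq (GRCh38). The trend was removed as the median in bins of GC content and then of length.

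Named genes were LINC00941 and the genes the study names; per direction the 12 protein-coding genes furthest apart (mean of at least 500 reads, no readthrough, 2-fold also in TPM) and 5 lncRNA genes; the 10 most abundant called genes; up to 4 called members per list and direction; and per siRNA 4 genes with 8-base seed matches. Others are names chosen after their values were seen. Members, 61 gene lists and rules were chosen with earlier results of these data known. The analyses of readthrough and overlapping genes, of genes with a match to a single guide and of other runs of guide bases were added after seeing the data. Alternatives were other scalings (edgeR 4.0.16, DESeq2 1.42.0 size factors), units, count minimums, thresholds and site definitions. Python 3.11.15, numpy 2.4.6, scipy 1.17.1, pandas 2.3.3 and R 4.3.3 were used.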

Additional observations from a re-analysis of the deposited data

How the results depend on the processing

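No paired analysis was possible because each group has 1 sample, and no replicate could be left out. The counts of 94 and 77 genes (higher with si#1, higher with si#2) became 20 and 26 on quantile-normalized log2(TPM + 1), 664 and 691 with no minimum on the mean count, 156 and 145 from 50 reads, 38 and 32 from 500, 26 and 21 from 1000, and 465 and 434 at 1.5-fold. With TMM or DESeq2 scaling, the total count, the TPM ratio, a pseudocount of 10, protein-coding genes alone, the trend subtracted, or without readthrough or overlapping genes (all run as alternatives), both counts stayed within 1.5 times. LINC00941 stayed between -0.39 and -0.23. Of 68 other named genes none changed sign under 6 alternatives, and 33 of the 62 past 2-fold passed under all of them. The losses were 29 on log2(TPM + 1), 3 in the TPM ratio, 2 each with a pseudocount of 10 and the total count, and 1 each with TMM and DESeq2 scaling. For genes with si#1 guide matches (-0.02), the median was -0.0390 for 8-base matches and -0.0659 for 2 or more. From the shortest to the longest group of 3′ UTRs it was -0.0936, -0.0860 and 0, beside -0.0318, 0.00936 and 0.0459 without a match. It was -0.0583 with the trend subtracted and -0.0427 with no si#2 match. It turned to 0.0123 for the passenger strand. For si#2 (0.07), it was 0.132 for 8-base matches and 0.130 for 2 or more. In the shortest group it was 0.0342, beside -0.0345 without a match. With the trend subtracted it was 0.00843. The causes were not tested. Counting error alone allows a median half-width of 0.35 on the log2 scale at 100 to 200 reads, and without replicates the spread between cultures is unknown.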
